A study of Mus musculus with 8 samples.

Results

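The hedgehog pathway genes examined in clonal mouse liver tumour lines were Evc, Evc2, Gli1, Gli2, Gli3, Ptch1, Smo, Sufu, Hhip and Gas1. They are 10 of the 22180 genes that the array measured with a probe set naming that gene alone. The set was put together because Evc is higher in lines from intrahepatic cholangiocarcinoma (ICC), which resembles bile duct, than in lines from hepatocellular carcinoma (HCC), which resembles hepatocytes. The values of Evc in the 2 tumour types are therefore given as a description, without a test. The other 9 genes are listed for their role in the pathway.

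Total RNA from 8 lines, 4 ICC and 4 HCC, was labelled from 100 ng and measured on 1 Affymetrix array each. Tumours of both types arose in C57BL/6 mice from hepatocytes transformed with the pCaMIN vector, which carries c-Myc and NrasG12V, so all lines share the strain and both oncogenes. The ICC lines came from tumours made by focal electroporation of the liver and the HCC lines from tumours made by hydrodynamic injection into the tail vein, so tumour type and delivery cannot be told apart. All lines were grown without treatment in DMEM with 10% fetal calf serum under 7.5% CO2. ICC9 and ICC10 are labelled female and ICC2.7 and ICC2.9 male. HCC2.1 and HCC2.4 are labelled female and HCC1 and HCC4 male. Each line is 1 clone, and the labels do not say which lines share a tumour or a mouse, so a p-value here refers to the spread among these clones and no more. The age of the mice is not given in the sources used here.

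Hedgehog ligands bind the receptor Ptch1, which in the absence of ligand holds back the membrane protein Smo. Active Smo gathers in the primary cilium, where it relieves the inhibitor Sufu of its grip on the Gli transcription factors. Evc and Evc2 form a membrane complex at the base of the cilium that binds Smo and passes its signal on. In the liver the pathway is best known from bile duct cells, stellate cells and repair after injury, while mature hepatocytes use it little. Gli1, Ptch1 and Hhip are themselves targets of Gli factors and serve as readouts of pathway activity.

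Values are log2 expression, so a difference of 1 is a doubling. Array medians ranged from 5.02 to 5.09. The 8 columns of values span only 7 directions. The direction that is missing nearly coincides with what would set ICC9 apart from the other lines once type and sex are counted (cosine 0.989), so little of what is particular to ICC9 remains in the values. Of 8 hepatocyte markers 1 (Hnf4a) lay above the median gene level, and of 7 cholangiocyte markers 3 did (Sox9, Krt19 and Krt7). Hepatocyte markers were not low in every line: HCC2.1 and HCC2.4 had Apob at 8.80 and 8.79, against 3.69 to 5.34 in the other lines, and Hnf4a at 7.26 and 7.06, against 5.32 to 5.92. The remaining 6, Alb among them, stayed between 3.05 and 5.94 in all 8 lines. Between ICC and HCC limma called 0 of the 15, with 1 at an unadjusted p under 0.05, against 14.1% of all genes. The smallest p-values were those of Hnf4a (-0.82, adjusted p = 0.418) and Apob (-2.04, adjusted p = 0.479) among hepatocyte markers and of Cftr (0.39, adjusted p = 0.338) and Krt7 (0.12, adjusted p = 0.519) among cholangiocyte markers. A low array signal cannot be told from a lack of expression, because signal over background was not assessed.

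Evc and Evc2 were both higher in every ICC line than in every HCC line, by nearly the same amount. Evc measured 7.22 in ICC9, 6.90 in ICC10, 7.64 in ICC2.7 and 7.32 in ICC2.9. In the HCC lines it measured 5.55 in HCC1, 6.00 in HCC4, 6.06 in HCC2.1 and 6.26 in HCC2.4. The types were 0.64 log2 units apart at their nearest lines, ICC10 and HCC2.4. The means were 7.27 ± 0.30 in ICC and 5.97 ± 0.30 in HCC lines (SD, n = 4 each), a 2.47-fold difference.

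Evc2, the partner of Evc in the ciliary complex, measured 7.85 in ICC9, 7.45 in ICC10, 8.13 in ICC2.7 and 7.97 in ICC2.9. It measured 6.19 in HCC1, 6.29 in HCC4, 6.85 in HCC2.1 and 6.98 in HCC2.4. As for Evc, the groups did not overlap, the lowest ICC line being ICC10 and the highest HCC line HCC2.4, with 0.47 between them. The means were 7.85 ± 0.29 and 6.58 ± 0.40 (SD, n = 4 each), a difference of 1.27 log2 units (SE 0.21) or 2.42-fold. Over all genes limma gave Evc2 an adjusted p of 0.0553, just over the threshold of 0.05, at which 0.261% of all genes were called. It passed among genes above the median level (0.0433), without ICC10 (0.0485) and when sex was added to the model (0.0330), though not with sex and the missing direction together (0.0806). It also passed with array weights (0.00554), a fit that did not converge and that called 2278 of all genes against 58 in the main fit. The prefix 2 in the names of ICC2.7, ICC2.9, HCC2.1 and HCC2.4 was also tried as a block, an alternative chosen after the data were seen, and Evc2 passed with it (SE 0.12, adjusted p = 0.0102). Within the lines with that prefix Evc2 differed by 1.14 and within the others by 1.41, and Evc by 1.32 and 1.29. The adjusted p of Evc2 over all 18 alternatives ran from 0.00554 to 0.187. Without ICC9 the difference was 1.27 (adjusted p = 0.164). Types that do not overlap were found in 8.63% of all genes, and Evc and Evc2 were the 2 of the 10 pathway genes that showed it. For Evc this is part of why the set was chosen, and nothing is read from its place in that count.

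Evc and Evc2 are neighbours on mouse chromosome 5 and are read in opposite directions from start sites that lie 1597 bases apart, with 0 other RefSeq genes between them. Because their values ran together over the lines, sequence before each start site of the RefSeq promoter table is shown (GRCm38.p6, 5′ to 3′ on the strand of the gene, at chr5:37336936-37337131 on the minus strand for Evc and chr5:37338228-37338477 on the plus strand for Evc2). The stretch of Evc2 is the 250 bases before its start site. The RefSeq gene record of Evc begins 66 bases before the start site used in that table, so the stretch of Evc ends with the marked run, of which 12 bases lie inside the gene record. Capitals mark the longest run of letters that the 250 bases before the 2 start sites have in common when either strand is read. The run is in opposite orientation relative to the 2 genes, so both copies read alike on the plus strand of the chromosome.
Evc: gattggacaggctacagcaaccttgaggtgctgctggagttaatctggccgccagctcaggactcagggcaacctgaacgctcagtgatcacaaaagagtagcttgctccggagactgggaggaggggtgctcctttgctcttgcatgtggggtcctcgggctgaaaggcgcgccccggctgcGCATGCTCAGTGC
Evc2: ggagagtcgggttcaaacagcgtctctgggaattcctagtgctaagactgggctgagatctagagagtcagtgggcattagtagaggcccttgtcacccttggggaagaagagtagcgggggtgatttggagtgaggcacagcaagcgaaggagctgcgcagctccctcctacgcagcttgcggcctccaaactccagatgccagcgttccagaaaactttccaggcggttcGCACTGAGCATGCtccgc

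The shared run is 13 bases long and begins 67 bases before the start site of Evc and 18 bases before that of Evc2. It is found, on either strand, in 10 of 32851 RefSeq promoter windows of 300 bases (0.0304%), those of Evc and Evc2 included, and it was picked out by comparing these promoters. The stretches are rich in G and C, at 60.2% for Evc and 57.2% for Evc2. Of the 10 pathway genes 9 have a window in the RefSeq table, Gli1 being the exception. The Gli core motif GACCACCCA, searched on both strands, is in 0 of these 9 windows and in 0.253% of all windows. The E-box CACGTG, bound by Myc among other factors, is in 0 of the 9 and in 7.15% of all. A match or its lack describes these windows only.

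**Figure D1:**
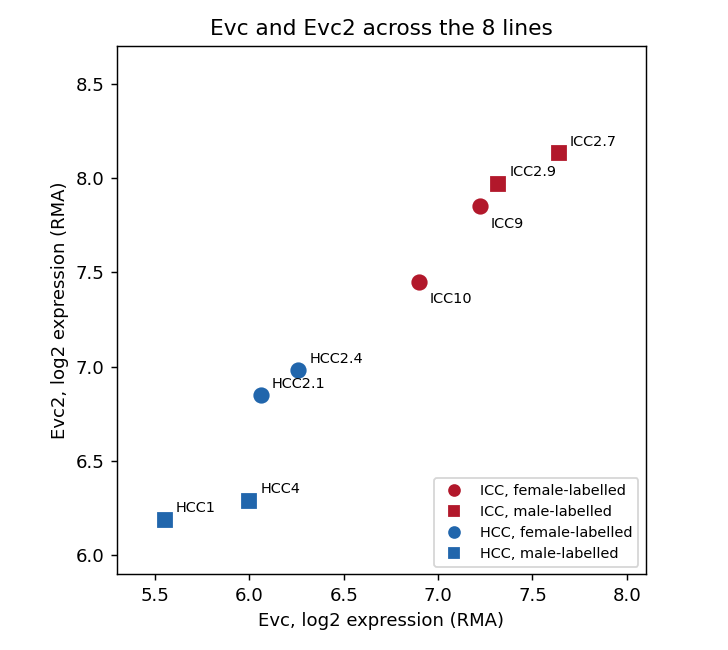
Log2 expression of Evc (x axis) and Evc2 (y axis) in the 8 lines, 1 point per line, coloured by tumour type and shaped by sex label. The 4 ICC lines lie at the upper right and the 4 HCC lines at the lower left, with HCC1 lowest for both genes and ICC2.7 highest for both.

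Across the 8 lines Evc and Evc2 followed each other closely, with a Pearson correlation of 0.979. This is a description over 8 lines that fall into 2 types. Within each type the order of the lines was also alike: ICC2.7 was highest and ICC10 lowest for both genes, and HCC2.4 was highest and HCC1 lowest. Taken by type and sex label, mean Evc ran from 7.48 in male-labelled ICC lines through 7.06 in female-labelled ICC and 6.16 in female-labelled HCC to 5.78 in male-labelled HCC lines. Mean Evc2 had the same order, at 8.05, 7.65, 6.92 and 6.24. The 2 lines of a pair lay within 0.23 of their mean for Evc and within 0.20 for Evc2. For Evc the neighbouring pairs inside a type were hardly apart, with ICC9 at 7.22 next to ICC2.9 at 7.32 and HCC4 at 6.00 next to HCC2.1 at 6.06.

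The genes whose pattern over the 8 lines was most like that of Evc were ranked by Pearson correlation among all named genes. Ctnnd2, which encodes delta-catenin, came first (0.987) and Evc2 second. Bcl2l13, a mitochondrial member of the BCL2 family (0.979), Ccdc88a, the actin-binding protein girdin (0.978), and Hdhd2 (0.974) followed. Ctnnd2 measured 5.26 to 5.88 in ICC and 4.60 to 5.05 in HCC lines, and Ccdc88a 8.89 to 9.15 and 8.28 to 8.63. Bcl2l13 moved little, from 8.47 in HCC1 to 8.65 in ICC2.7. Genes ranked by likeness to Evc take over its separation of the types, so these ranges describe the ranking and are no separate result. Of the other 8 pathway genes the nearest to Evc was Gli3, at 0.648.

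In the main fit the remaining partners of Evc in its ciliary zone, like Evc2, did not pass limma's test. Efcab7, which anchors the complex together with Iqce, measured 6.91 ± 0.44 in ICC and 6.37 ± 0.13 in HCC lines (SD, n = 4 each), a difference of 0.54 (SE 0.20, adjusted p = 0.276). Iqce measured 7.14 ± 0.11 and 7.32 ± 0.05, a difference of -0.18 (SE 0.08, adjusted p = 0.373). The inversin gene Invs, of the neighbouring ciliary compartment, differed by 0.25 (adjusted p = 0.360) and was the second gene by p-value in its list after Efcab7. Of the 6 measured genes of the EvC zone and inversin compartment, limma called 0, and 1 had an unadjusted p under 0.05, against 14.1% of all genes.

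**Figure D2:**
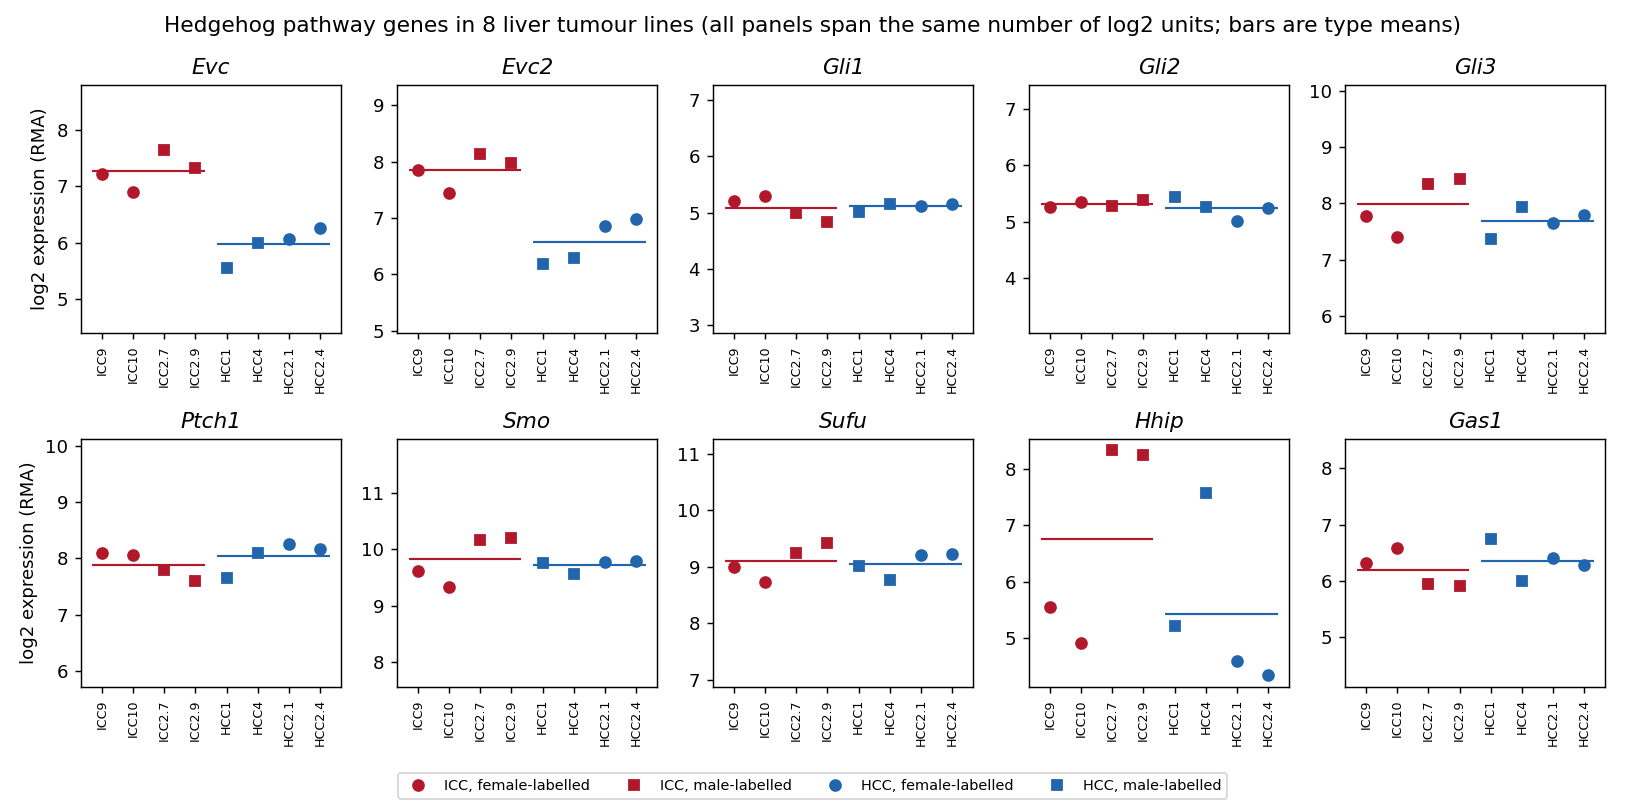
Log2 expression (y axis) of the 10 pathway genes in each of the 8 lines (x axis), with red for ICC, blue for HCC, circles for female-labelled and squares for male-labelled lines, and horizontal bars at the type means. Every panel spans the same number of log2 units. Evc and Evc2 separate the types, Hhip spreads over 3.98 units inside and across the types, and Gli1 and Gli2 stay within 0.45 and 0.41.

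None of the 9 genes other than Evc was called between ICC and HCC lines by limma over all genes, and Evc2 was the 1 gene of the 9 with an unadjusted p under 0.05, against 14.1% of all genes. By their means 6 of the 9 were higher and 3 lower in ICC, with a median difference of 0.08 against 0.00 over all genes.

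Among receptors and membrane proteins, Ptch1, the receptor that holds back Smo, differed little between the means of the types. It measured 8.09 in ICC9, 8.06 in ICC10, 7.80 in ICC2.7 and 7.59 in ICC2.9. It measured 7.66 in HCC1, 8.09 in HCC4, 8.26 in HCC2.1 and 8.17 in HCC2.4. The lowest lines were ICC2.9 and HCC1, and the types overlapped. The difference was -0.16 (SE 0.16, adjusted p = 0.700), with a 95% interval from -0.53 to 0.21.

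Smo, the signal-transducing membrane protein that the Evc complex binds, measured 9.62, 9.33, 10.17 and 10.20 in ICC9, ICC10, ICC2.7 and ICC2.9, respectively. In HCC1, HCC4, HCC2.1 and HCC2.4 it measured 9.75, 9.56, 9.78 and 9.79. The HCC lines lay between the female-labelled and the male-labelled ICC lines except HCC4, which was below ICC9. The type difference was 0.11 (SE 0.19, adjusted p = 0.843, 95% interval -0.33 to 0.55), and it turned negative with array weights and without either ICC2.7 or ICC2.9.

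Gas1, a surface co-receptor that promotes ligand binding, measured 6.31, 6.58, 5.94 and 5.91 in ICC9, ICC10, ICC2.7 and ICC2.9, respectively. It measured 6.74, 6.00, 6.40 and 6.29 in HCC1, HCC4, HCC2.1 and HCC2.4. ICC2.7, ICC2.9 and HCC4 were the lowest lines. The difference was -0.17 (SE 0.19, adjusted p = 0.736, 95% interval -0.61 to 0.27).

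Hhip, a decoy that binds hedgehog ligands outside the cell, was the most variable of the 10 genes. It measured 5.56 in ICC9, 4.91 in ICC10, 8.33 in ICC2.7 and 8.25 in ICC2.9. It measured 5.21 in HCC1, 7.57 in HCC4, 4.59 in HCC2.1 and 4.35 in HCC2.4. ICC2.7, ICC2.9 and HCC4 thus stood at least 2.01 log2 units above the other 5 lines, and those 3 lines are of both types. The spread over the 8 lines (SD 1.67) was larger than that of 99.7% of all genes. Means of 6.76 ± 1.78 in ICC and 5.43 ± 1.47 in HCC lines (SD, n = 4 each) differed by 1.33 (SE 0.95, adjusted p = 0.573), a difference as large as that of Evc but within the spread between lines. It ran from 0.81 without ICC2.7 to 2.05 without HCC4 and was 0.50 with array weights. Within the lines that carry the prefix 2 it was 3.82, and within the others -1.16.

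Sufu, the cytoplasmic inhibitor of Gli factors, measured between 8.73 (ICC10) and 9.42 (ICC2.9), with HCC lines from 8.77 to 9.23. Its type difference was 0.04 (SE 0.17, adjusted p = 0.941, 95% interval -0.34 to 0.42). Sufu is the 1 gene of the 10 with a second probe set, which was dimmer (5.35 to 5.69) and gave a difference of -0.04.

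The 3 Gli genes encode the transcription factors at the end of the pathway, and none was called. Gli1, an activator and itself a target, measured 5.20, 5.29, 4.99 and 4.84 in ICC9, ICC10, ICC2.7 and ICC2.9, respectively. In HCC1, HCC4, HCC2.1 and HCC2.4 it measured 5.01, 5.15, 5.12 and 5.16. Every HCC value lay inside the ICC range, and the difference was -0.03 (SE 0.11, adjusted p = 0.932, 95% interval -0.28 to 0.22). The sign of this small difference turned with array weights and without ICC2.9.

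Gli2, the main activator of the first response, lay between 5.26 and 5.38 in ICC and between 5.02 and 5.43 in HCC lines, a difference of 0.08 (SE 0.10, adjusted p = 0.765). Gli1 and Gli2 were the 2 of the 10 genes whose mean signal was below the median gene, at the 40.5th and 43.8th percentile of all genes. Probe sets bind with unequal strength, so this places the signal and not the amount of RNA.

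Gli3, which acts mostly as a repressor, measured 7.77 in ICC9, 7.40 in ICC10, 8.35 in ICC2.7 and 8.44 in ICC2.9. It measured 7.36 in HCC1, 7.94 in HCC4, 7.65 in HCC2.1 and 7.80 in HCC2.4. The male-labelled ICC lines were highest, followed by HCC4, and ICC10 and HCC1 were lowest. The type difference was 0.30 (SE 0.24, adjusted p = 0.609, 95% interval -0.23 to 0.84), and it ran from 0.15 to 0.50 when 1 line was left out.

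ICC2.7, ICC2.9 and HCC4 thus had the highest values of the 8 lines for both Hhip and Gli3 and the lowest for Gas1. Over the 8 lines Gli3 correlated with Hhip at 0.845 and with Gas1 at -0.951, the lowest correlation of the 45 pairs of pathway genes. Smo and Sufu correlated at 0.898 and Gli1 and Ptch1 at 0.807. Hhip, also a readout, correlated with Gli1 at -0.643 and with Ptch1 at -0.587, so the readouts did not all run together. Gli1 correlated with Smo at -0.897. These values describe 8 lines whose pairs of one type and sex lie close together (consensus correlation 0.398 over all genes), and the pairs were picked after their values were seen.

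**Figure D3:**
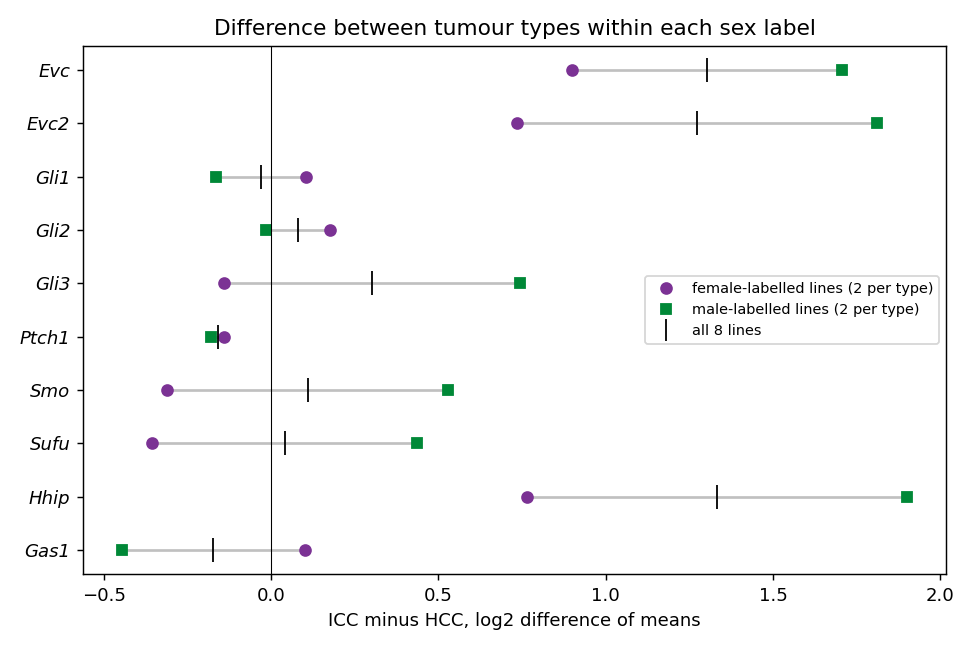
ICC minus HCC difference of means (x axis, log2) for each pathway gene (y axis) in the female-labelled lines (circles), the male-labelled lines (squares) and all 8 lines (vertical ticks). Evc, Evc2 and Hhip lie to the right of 0 for both labels. Gli3, Smo and Sufu lie to the left of 0 in female-labelled and to the right in male-labelled lines.

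The types were also compared within each sex label. For Evc the ICC minus HCC difference was 0.90 in female-labelled and 1.71 in male-labelled lines, with 2 lines per type in each. For Evc2 it was 0.74 and 1.81. Gli3 differed by -0.14 and 0.75, Smo by -0.31 and 0.53, Sufu by -0.36 and 0.44 and Gas1 by 0.10 and -0.45, with opposite signs under the 2 labels. The signs of Gli1 (0.10 and -0.17) and Gli2 (0.17 and -0.02) were opposite as well, by small amounts. Ptch1 differed by -0.14 and -0.18 and Hhip by 0.77 and 1.90. By the name prefix 2 instead, Ptch1 differed by -0.52 in lines with the prefix and by 0.20 in the others. In that order Gli3 differed by 0.67 and -0.065, Smo by 0.40 and -0.18 and Gas1 by -0.42 and 0.075. Gli1 (-0.225 and 0.165), Gli2 (0.20 and -0.04) and Sufu (0.11 and -0.03) changed sign as well.

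Whether the type difference itself differed between labels was tested with an interaction term. Limma called 0 of the 10 genes and 0 of all genes (0%). An unadjusted p under 0.05 was reached by 5 of the 10, by 4 of the 9 other than Evc and by 20.1% of all genes. Evc is counted apart because its type difference chose the set. Evc2 had the smallest adjusted p of the 10 (interaction -1.07, SE 0.21, adjusted p = 0.113), followed by Smo (-0.84, SE 0.18, 0.115) and Sufu (-0.79, SE 0.20, 0.122). The lines named with the prefix 2 are male-labelled in ICC and female-labelled in HCC, so this interaction cannot be told apart from whatever the prefix stands for.

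Between female- and male-labelled lines, with tumour type in the model, Hhip was the 1 gene of the 10 that limma called, against 2.94% of all genes. Hhip averaged 7.34 ± 1.46 in male-labelled and 4.85 ± 0.52 in female-labelled lines (SD, n = 4 each), a 5.61-fold difference (female minus male -2.49, SE 0.48, adjusted p = 0.0376). The male-labelled HCC1, at 5.21, lay inside the female-labelled range of 4.35 to 5.56, so the groups overlapped. Without HCC1 the difference was -3.07 (adjusted p = 0.000536). The call was lost with the missing direction in the model (0.0762) and without any other single line, among them ICC9 (-2.50, adjusted p = 0.125) and HCC4 (-2.13, 0.0603). Lines of one type and label may share a source, so sex cannot be told apart from what else the pairs share.

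Ptch1 was lower in male-labelled lines by its mean, at 7.79 ± 0.22 against 8.15 ± 0.09 (SD, n = 4 each), and did not pass (female minus male 0.36, SE 0.11, adjusted p = 0.138). It did pass without HCC4 (0.0439) and with array weights (0.0266), a fit that did not converge. Gli1 differed by 0.20 (SE 0.09, adjusted p = 0.322) and Gli3 by -0.37 (SE 0.21, adjusted p = 0.424). Evc differed by -0.02 (SE 0.20, adjusted p = 0.976) and Evc2 by 0.14 (SE 0.22, adjusted p = 0.806). Over the 10 genes 2, Hhip and Ptch1, had an unadjusted p under 0.05, against 17.5% of all genes.

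The rest of the pathway was read from 5 lists with 87 measured genes besides the 10. Limma called 0 of the 87 between ICC and HCC lines, 14 (16.1%) had an unadjusted p under 0.05, against 14.1% of all genes, and the median difference was 0.03. For each single list the background is the same 14.1%. Among 11 genes for ligands, their release and co-receptors, 0 were called and 1 had an unadjusted p under 0.05, with a median of -0.03. That gene was Hhat, which attaches the palmitate that ligands need, at 7.63 ± 0.26 in ICC and 7.23 ± 0.22 in HCC lines (SD, n = 4 each; difference 0.41, SE 0.16, adjusted p = 0.295). Disp2, a relative of the ligand-releasing Disp1, differed by -0.42 (SE 0.27, adjusted p = 0.539). The ligand genes, named here for their role and outside the naming rule, differed by -0.03 for Shh (adjusted p = 0.927), 0.12 for Ihh (0.642) and -0.07 for Dhh (0.920).

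Of 17 measured cytoplasmic and kinase regulators 0 were called and 3 had an unadjusted p under 0.05, with a median difference of 0.00. Prkaca, the catalytic subunit of protein kinase A that marks Gli factors for processing, measured 10.15 ± 0.02 in ICC and 9.86 ± 0.07 in HCC lines (SD, n = 4 each; difference 0.30, SE 0.07, adjusted p = 0.140). Gpr161, a ciliary receptor that keeps that kinase active, differed by -0.33 (SE 0.11, adjusted p = 0.239).

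In the list of cilium assembly and transport genes 26 of 33 had a higher mean in ICC and 7 a lower one, with a median difference of 0.14 against 0.00 over all genes. Limma called 0, and 6 had an unadjusted p under 0.05. Tulp3, which carries receptors into the cilium, measured 8.69 ± 0.05 in ICC and 8.21 ± 0.12 in HCC lines (SD, n = 4 each), a difference of 0.48 (SE 0.09, adjusted p = 0.0645). Tulp3 passed among genes above the median level (0.0428) and with sex in the model (0.0266), but not with sex and the missing direction together (0.0979). It also passed with array weights (0.00415), a fit that did not converge. Ift80, a transport particle subunit, differed by 0.39 (SE 0.11, adjusted p = 0.190). The list mean per line ran from 7.39 to 7.67 in ICC and from 7.28 to 7.44 in HCC lines, with ICC2.7 and ICC2.9 the highest. ICC9 (7.42) and ICC10 (7.39) lay inside the HCC range. By sex label the median female minus male difference of the list was -0.18.

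Known target genes of the pathway differed in both directions, with 9 of 20 higher and 11 lower in ICC by their means, 0 called, 3 at an unadjusted p under 0.05 and a median of -0.06. Rasl11b, a small GTPase gene, measured 6.22 ± 0.64 in ICC and 7.22 ± 0.44 in HCC lines (SD, n = 4 each; difference -1.0, SE 0.33, adjusted p = 0.230). It passed when sex was added to the model (0.0134), also together with the missing direction (0.0433). Foxl1, a forkhead factor of gut and liver mesenchyme, differed by 0.47 (SE 0.15, adjusted p = 0.231).

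By sex label limma called 2 of the 87 genes (2.30%), against 2.94% of all genes, so the share called in the lists was no larger than the background. Both are in the target list. Both were higher in female-labelled lines, Foxf2, a mesenchymal forkhead factor, by 0.97 (SE 0.13, adjusted p = 0.00844) and Rasl11b by 0.90 (SE 0.13, adjusted p = 0.0116). For ICC minus HCC, Foxf2 differed by -0.67 (limma, adjusted p = 0.430). It passed with sex in the model (0.0441), but not with sex and the missing direction together (0.111).

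**Figure D4:**
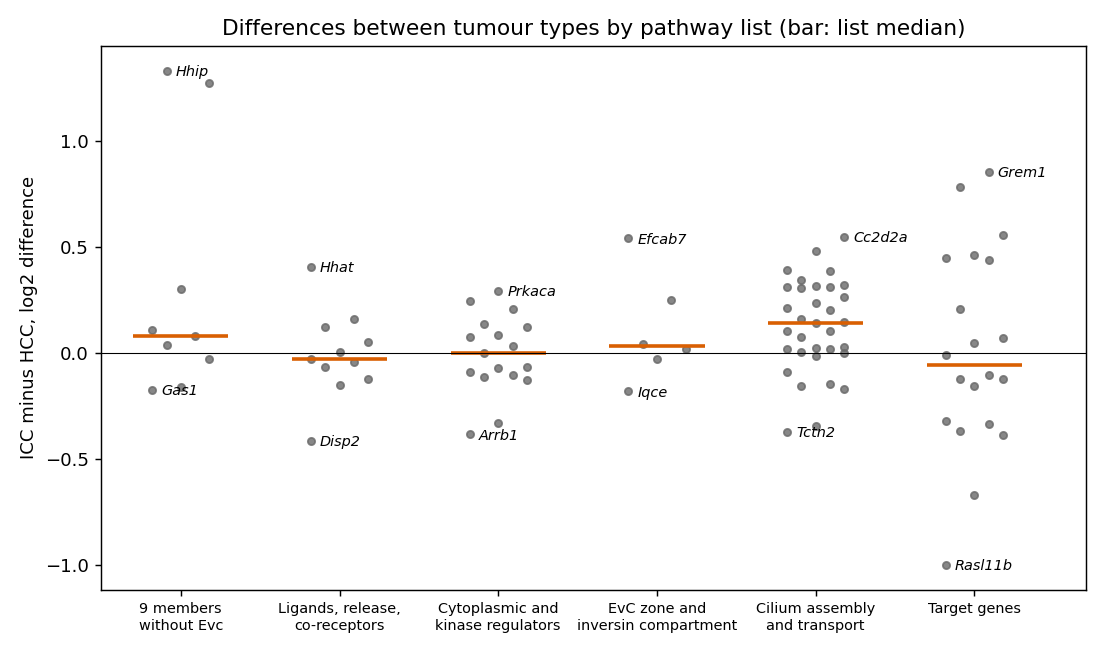
ICC minus HCC log2 differences (y axis) of the 9 pathway genes without Evc and of the genes in 5 pathway lists (x axis), 1 point per gene, with the list median as a bar and the outermost genes named. Every list has points on both sides of 0, and the points run from -1.0 for Rasl11b to 1.33 for Hhip. Cilium genes have the highest list median, 0.14, with 26 of 33 above 0.

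Markers of stellate cells and fibroblasts, the hedgehog-responsive mesenchymal cells of the liver, were checked beside Hhip and Gli3. The mean log2 level over all 11 markers was 6.49 in ICC2.7, 6.25 in ICC2.9 and 5.75 in HCC4, the 3 lines with the highest Hhip. It was 6.01 in HCC1 and from 5.23 to 5.82 in the female-labelled lines. By sex label limma called 1 of the 11, against 2.94% of all genes. This was Acta2, the smooth muscle actin, which was higher in male-labelled lines by 0.52 log2 units (female minus male -0.52, SE 0.11, adjusted p = 0.0460). The levels of the 11 were uneven, with 5 above the median gene. Pdgfrb, a receptor of stellate cells and pericytes, measured 10.55 in ICC2.7 and 9.89 in ICC2.9 against 6.66 in HCC4 and 7.48 to 8.41 in the other 5 lines. Col1a1, a chain of type I collagen, measured 9.82 and 8.19 in ICC2.7 and ICC2.9 and 6.41 to 7.18 in the others. Col1a2, of the same list, was highest in the 3 lines with the highest Hhip. It measured 6.69 in ICC2.7, 6.77 in ICC2.9 and 6.78 in HCC4, against 5.42 to 5.79 in the other 5 lines. Rgs5, a pericyte gene, measured 6.08 in ICC9, 4.40 in ICC10 and 9.49 to 10.12 in the other 6 lines. Dcn and Lum, which mark fibroblasts, had the lowest levels of the list, from 3.03 to 3.82 over all lines. Pdgfrb, Col1a1, Col1a2, Rgs5, Dcn and Lum were named after their values were seen. Between ICC and HCC limma called 0 of the 11, and 2 had an unadjusted p under 0.05, against 14.1% of all genes. Reln (0.34, adjusted p = 0.136) and Des (-0.87, adjusted p = 0.230) had the smallest p-values. Among cholangiocyte markers limma called 1 of 7 by sex label, against the same 2.94% of all genes. This was the keratin gene Krt19, which was higher in female-labelled lines by 2.19 (adjusted p = 0.00483). The part of these markers in the values of Hhip and Gli3 was not tested.

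Of the macrophage and leukocyte markers 0 of 7 were called between the types, with 1 at an unadjusted p under 0.05 (Cd3e, -0.39, adjusted p = 0.0899, with Cd68 next at -1.13, adjusted p = 0.399). Of 6 endothelial markers 0 were called, with 1 at an unadjusted p under 0.05 (Tek, 0.24, adjusted p = 0.251, with Pecam1 next at -0.28, adjusted p = 0.441). For both lists the share of all genes at that unadjusted p was 14.1%.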

How the data were processed

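The deposited table holds log2 expression values of 39993 probe sets in 8 lines, made by the authors with RMA in the oligo package, per the submitters' processing notes (versions not given in the sources used here). Probe sets naming exactly 1 gene (23521) were kept, and the one with the highest mean represented its gene, which gave 22180 genes; 1814 probe sets naming several genes and 14658 naming none were left out. No filter was applied. Differences were tested with limma 3.58.1 under R 4.3.3 (two-sided moderated tests, Benjamini-Hochberg over all genes, adjusted p under 0.05), for ICC against HCC without covariates, for sex with type in the model, and for their interaction. The script was tested on simulated data. The number of arrays limits the precision. An SE is limma's moderated standard error.

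The members, the lists, and the alternative with the missing direction were chosen with earlier results of these data known. Named are the 10 members, up to 4 called genes per list (the 2 of smallest p where fewer than 2 are called), and the 5 genes most correlated with Evc other than predicted genes, small RNAs, RIKEN clones or pseudogenes. Promoter sequences and gene order come from RefSeq tables for GRCm38.p6. Alternatives were quantile normalization, a trended robust eBayes, genes above the median level, the mean of probe sets, the missing direction, array weights, sex in the model alone or with that direction, a random block for lines of one type and sex, leaving out each line and, added after the data were seen, the name prefix 2 as a block (not for the interaction, which it equals).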

Additional observations from a re-analysis of the deposited data

How the results depend on the processing

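The number of arrays and the unassessed background limit these results, and array weights, which did not converge, gave the most calls in the ICC against HCC and sex comparisons. Over all genes the ICC against HCC count was 58, and it was 103 among genes above the median level, 12 with the missing direction, 2278 with array weights, 428 with sex in the model, 119 with sex plus the missing direction, 6 with the random block, 129 with the name prefix as a block, and 2 to 109 when 1 line was left out. Of the 9 members besides Evc the count was 0, and 1 (Evc2) among genes above the median level, with array weights, with sex in the model and with the prefix block, and 0 to 1 without 1 line. Of the 87 other pathway genes it was 0, and 1 among genes above the median level, 8 with array weights, 3 with sex and 1 with sex and the missing direction (0 without any 1 line). By sex the count over all genes was 653, and it was 280 with the missing direction, 2036 with array weights, 1264 with the prefix block and 146 to 917 without 1 line. Of the 10 members it was 1, and 0 with the missing direction, 2 with array weights and 0 to 1 without 1 line. The interaction count was 0 over all genes, and 255 with the missing direction and 0 to 238 without 1 line, with 0 members throughout. Small differences changed sign. For ICC minus HCC these were Gli1 (0.082), Smo (-0.12) and Sufu (-0.11) with array weights. Without 1 line they ran from -0.10 to 0.05 for Gli1, -0.01 to 0.28 for Smo (-0.0033 without ICC2.7, -0.013 without ICC2.9) and -0.068 to 0.16 for Sufu. For female minus male Evc was 0.026 with quantile normalization and -0.19 to 0.13 without 1 line, and Sufu -0.20 to 0.063. The interaction ran from -0.17 to 0.26 for Ptch1 and from -2.31 to 0.045 for Hhip without 1 line. The cause of these changes was not tested. The ICC minus HCC difference of Evc lay between 1.16 and 1.43 under all 18 alternatives. The prefix block was chosen after the data were seen. No paired analysis by replicate number was made, because nothing in the labels pairs a line of one type with a line of the other.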
